A study of Mus musculus with 12 samples.

Results

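The DNA replication and S phase genes described here are 58 genes that act at the steps of copying the genome, out of 24411 gene symbols in the deposited expression table. They were taken by name, and all 58 were in the table with a mean of at least 10 normalised read counts over the 12 libraries. The lowest mean was 161.4, for Gins3, so none lay near that limit. RNA was sequenced from mouse leukaemia cells on the BALB/c background, bone marrow cells in which retroviruses expressed mutant forms of CSF3R and CEBPA. Libraries came from cells given both drugs, 2 nM GSK-LSD1 alone, 50 nM ruxolitinib alone or DMSO, each for 24 h, with 3 libraries for each of the 4 treatments. The combination used the same doses as the single drugs. All 4 groups carried the same mutant receptor and the same mutant transcription factor, and no cells without them were analysed here. GSK-LSD1 inhibits lysine demethylase LSD1, and ruxolitinib inhibits the JAK kinases that carry signals from the CSF3 receptor. Nothing in the labels says whether the 3 libraries of a group came from separate cultures, animals or clones, so p-values measure only the spread between these libraries.

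Before S phase the origin recognition complex, Cdc6 and Cdt1 load the MCM ring onto DNA, which licenses an origin. Cdc45 and GINS then turn the ring into an active helicase, and polymerases alpha, delta and epsilon copy the opened strands with the help of a sliding clamp. Nucleotide enzymes supply the building blocks, and histone chaperones and the maintenance methylation machinery rebuild chromatin behind the fork. Many of these genes are switched on together by E2F factors as cells enter S phase. In bulk RNA, fewer cells in S phase and less of these RNAs per cell cannot be told apart.

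The promoters of several members held the short letters that E2F factors are known to recognise. RefSeq promoter windows on GRCm38, from 250 bases before to 50 after a gene's start, were matched by symbol for 48 of the 58 members. Not matched were Mcm4, Gins1, Gins2, Gins4, Prim2, Pole, Rfc2, Atad2, Ccne2 and Tipin. TTTGGCG or TTTCCCG, read on either strand, stood in at least 1 window of 24 of these 48 genes (50%). The same letters stood in 867 of the 8865 tested genes that had a matched window (9.78%), out of 11484 tested. For the 250 bases before the start alone the shares were 27.1% of members and 8.17% of tested genes. CCAAT, the core of the NF-Y box, searched apart from these on both strands and sharing the letters CCAA with the reverse of TTTGGCG, was in 60.4% of members and 43.3% of tested genes. Of members that fell after both drugs 48.8% of 41 held the E2F letters in the whole window, against 57.1% of the 7 matched members that did not. In the 250 bases before the start alone the order was reversed, at 29.3% against 14.3%, the latter being 1 gene of 7. The 2 sets were not tested against each other. A match says only that the letters are there. The stretches below show such matches in a subunit of the helicase, a fork protection gene, a histone chaperone, a flap nuclease and a single-strand binding protein. They run 5′ to 3′ on the gene's strand with the E2F letters, or their reverse complement, in capitals.
Mcm6, chr1:128359706-128359855, minus strand: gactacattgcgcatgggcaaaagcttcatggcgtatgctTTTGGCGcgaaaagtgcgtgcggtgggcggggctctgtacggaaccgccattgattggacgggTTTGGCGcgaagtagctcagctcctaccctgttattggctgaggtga
Clspn, chr4:126556820-126556906, plus strand: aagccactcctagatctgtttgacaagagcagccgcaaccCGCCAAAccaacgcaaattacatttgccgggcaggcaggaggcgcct
Chaf1a, chr17:56040333-56040415, plus strand: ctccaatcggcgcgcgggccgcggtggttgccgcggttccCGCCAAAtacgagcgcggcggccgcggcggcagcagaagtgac
Fen1, chr19:10204394-10204457, minus strand: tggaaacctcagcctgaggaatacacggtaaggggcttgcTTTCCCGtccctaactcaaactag
Rpa3, chr6:8259174-8259227, minus strand: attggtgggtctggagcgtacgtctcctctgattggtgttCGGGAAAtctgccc
The Mcm6 matches began 110 and 47 bases before the start, that of Clspn 120, Chaf1a 43, Fen1 24 and Rpa3 46.

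Summed over genes, the replication genes were lower after GSK-LSD1 than with DMSO, and lower still after both drugs. Summed over the 58 genes, the libraries held 72847, 75347 and 74901 normalised read counts after both drugs, 78910, 77824 and 77591 after GSK-LSD1, 86478, 86642 and 86693 after ruxolitinib and 91240, 90558 and 91680 with DMSO. The sums of the 4 treatments did not overlap. On each of the 7 steps the sums after both drugs lay below those after GSK-LSD1 without overlap, and those after GSK-LSD1 below ruxolitinib, with an overlap on nucleotides. The sums after ruxolitinib lay below DMSO without overlap on every step but the polymerases. The sums of all members came to 81.6% of the DMSO mean after both drugs, 85.7% after GSK-LSD1 and 95% after ruxolitinib. Since values are scaled per library, these are levels relative to the rest of the RNA. Sums weigh genes with many reads most, and no test was made on them. The 3 comparisons with DMSO share the same 3 DMSO libraries.

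Gene by gene, both drugs lowered 50 of the 58 members and raised 1, E2f2, by the limma test at an adjusted p under 0.05. Of all 11484 genes tested 42.3% changed after both drugs (21.8% lower, 20.5% higher). GSK-LSD1 lowered 42 members and raised 1, again E2f2, where 32.5% of all genes changed (15.5% lower, 17% higher). Ruxolitinib lowered 2, Hells and Rrm2, where 1.63% of all genes changed and 0.627% fell. Any difference among the 4 treatments was found for 49 members by limma's F-test, against 42.8% of all genes. The median log2 difference from DMSO over the members was -0.33 after both drugs, -0.23 after GSK-LSD1 and -0.07 after ruxolitinib. Over all tested genes it was -0.010, -0.005 and -0.001 in that order. All 3 libraries lay below all DMSO libraries in 51 members after both drugs, 50 after GSK-LSD1 and 17 after ruxolitinib, against 26.8%, 26.5% and 12.8% of all tested genes. Without GSK-LSD1 replicate 3 the members called after GSK-LSD1 numbered 28 in place of 43. The share of all tested genes in that setting is not given here.

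**Figure D1:**
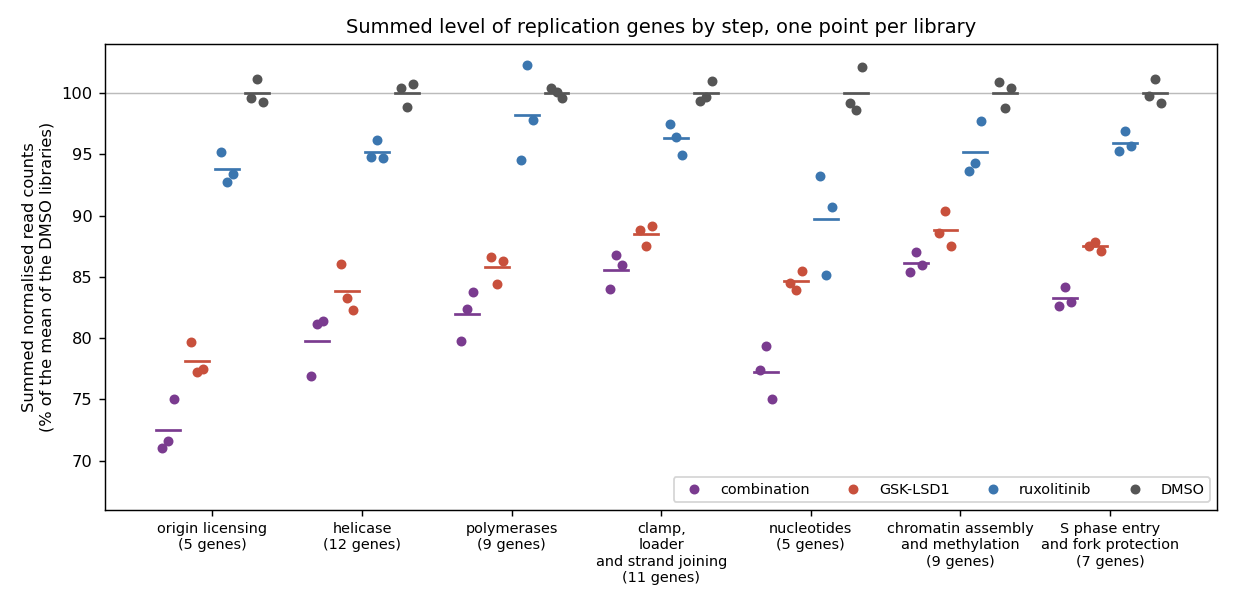
Summed normalised read counts of the members of each step, as a percentage of the mean of the DMSO libraries, with 1 point per library and a line at the mean of each treatment. In origin licensing the means were 72.5% after both drugs, 78.1% after GSK-LSD1 and 93.8% after ruxolitinib, and in chromatin assembly 86.1%, 88.8% and 95.2%; the axis does not start at 0.

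Libraries summed to between 8260995 and 8528400 in multiples of the smallest step of their values, so depth was nearly even. Ruxolitinib replicate 2 and combination replicate 3 stood apart from the rest of their groups on the second principal component (11.1% of variance). With both left out the calls among the members numbered 51 after both drugs, 52 after GSK-LSD1 and 3 after ruxolitinib. The calls over all tested genes with these libraries are not given here, so these counts do not speak of the members in particular. Markers of the labelled myeloid line were present in every library, among them Mpo, Cebpa and Csf3r. Their 10 genes summed to 30378 to 35001 normalised read counts after both drugs, 23476 to 24567 after GSK-LSD1, 27050 to 33391 after ruxolitinib and 23016 to 24043 with DMSO. Of these 10 genes 5 rose after both drugs, 3 rose (Ptprc, Kit and Cd34) and 3 fell (Elane, Prtn3 and Ctsg) after GSK-LSD1, and 4 rose after ruxolitinib. Markers of maturing neutrophils, taken as a sum, were higher than with DMSO after both drugs and after GSK-LSD1, and overlapped DMSO after ruxolitinib. Their summed level was 17734 to 19586 after both drugs, 11360 to 12978 after GSK-LSD1, 6650 to 8398 after ruxolitinib and 6364 to 7860 with DMSO. Of the 9 tested of 10, those that rose were 9 after both drugs, 5 after GSK-LSD1 and 1 after ruxolitinib. The 6 monocyte markers summed to 9410 to 9588 after both drugs, 9354 to 9826 after GSK-LSD1, 5476 to 6868 after ruxolitinib and 6431 to 7561 with DMSO, and 5, 4 and 0 of the 5 tested rose. Mast cell and basophil markers such as Cpa3 were high in every group, at 17276 to 19957, 18465 to 20028, 18693 to 20019 and 15729 to 17530 in the same order of groups, and 4, 4 and 1 of 5 rose. Erythroid markers summed to 209.1 to 353, 199.1 to 238.8, 469.6 to 565.2 and 421.1 to 493.6 in that order, with 4, 3 and 0 of 5 tested lower and the globins Hba-a1, Hbb-bt and Hbb-bs at 0 in all libraries. B and T cell markers reached at most 14.92 in any library, with Pax5 and Cd4 at 0. Stroma markers, with nearly all reads from Pecam1, summed to 3823 to 3867 after both drugs, 3572 to 3817 after GSK-LSD1, 2915 to 3380 after ruxolitinib and 2988 to 3073 with DMSO. Of the 2 tested of 5, Pecam1 rose after both drugs, Pecam1 and Col1a1 after GSK-LSD1, and neither after ruxolitinib. Apart from Pecam1 the list was low: over the 12 libraries the mean was 51.12 for Col1a1, 3.568 for Col1a2 and 0.9945 for Col3a1, with Cdh5 at 0. Megakaryocyte markers summed to 1965 to 2167, 1853 to 2069, 2091 to 2364 and 1966 to 2079 in the same order, and 0, 1 and 0 of the 3 tested rose. The part of these lists in the results on the replication genes was not tested.

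**Figure D2:**
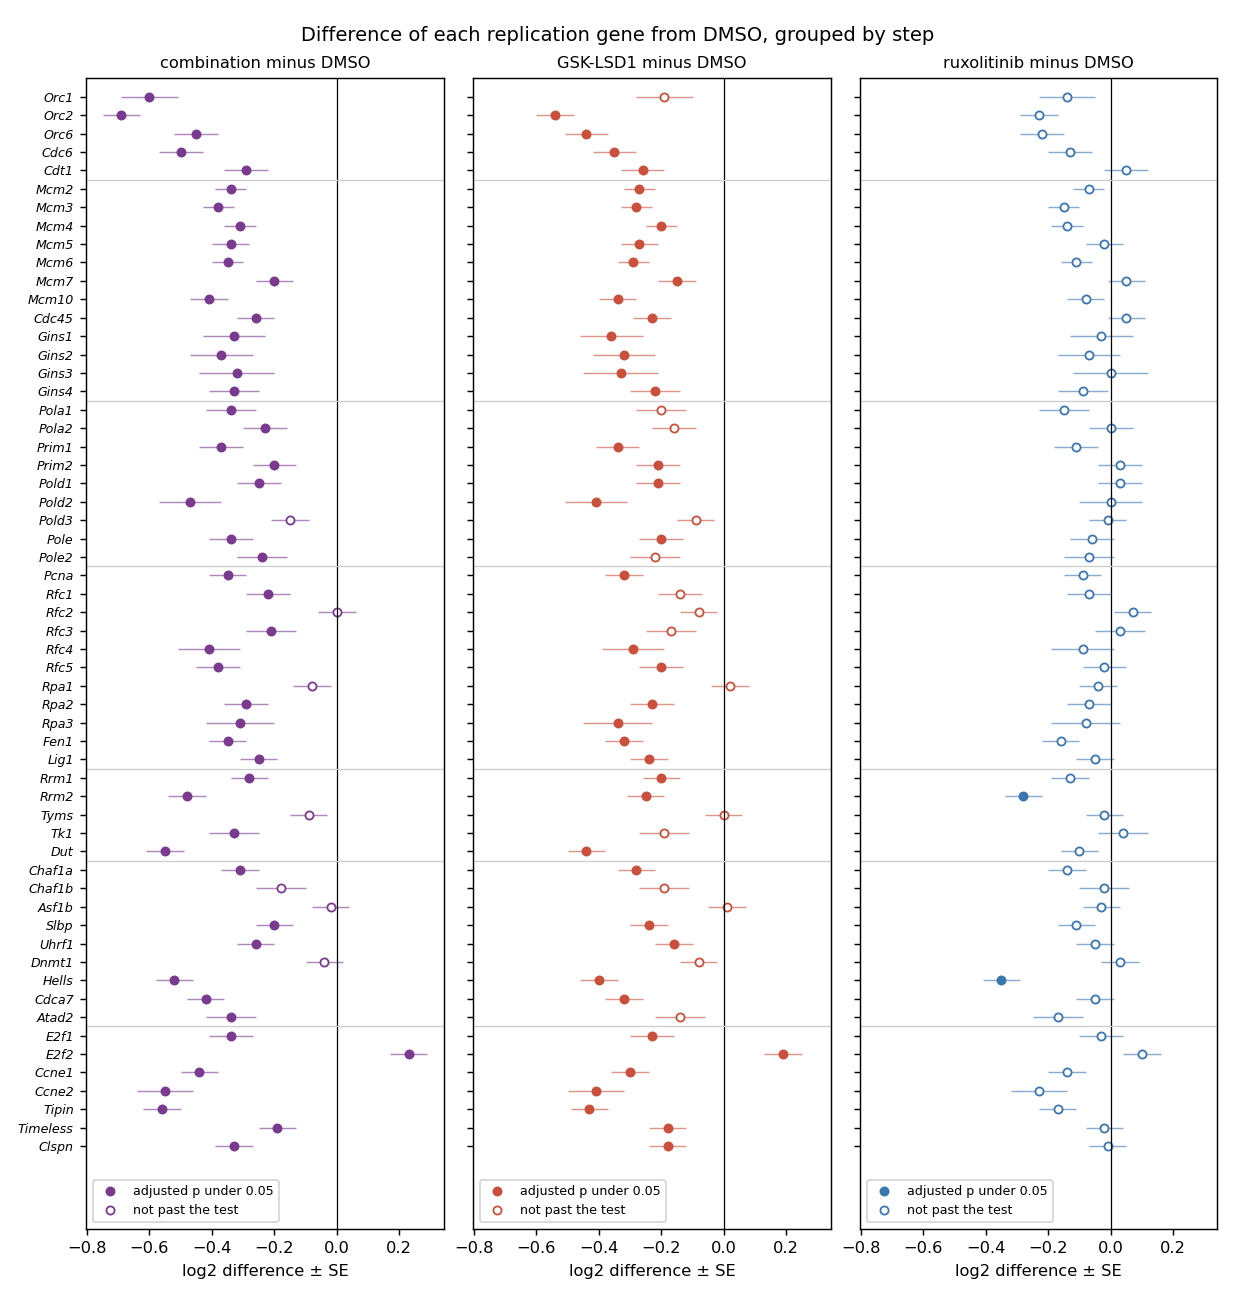
Log2 difference from DMSO of each of the 58 members with its standard error, for both drugs, GSK-LSD1 and ruxolitinib, grouped by step from origin licensing at the top to S phase entry at the bottom; filled points passed the limma test. After both drugs the points run from -0.69 (Orc2) to 0.23 (E2f2), and after ruxolitinib 2 points are filled.

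Origin licensing had the lowest sums relative to DMSO of all steps after both drugs and after GSK-LSD1, though steps were not tested against each other. All 5 of its genes fell after both drugs, with a median log2 difference of -0.50, and 4 of 5 fell after GSK-LSD1, with a median of -0.35. Orc2, a subunit of the origin recognition complex (GRCm38, chr1:58462771-58505109, minus strand), had 793.5, 788.2 and 690.2 normalised read counts after both drugs, 852.2, 831.1 and 835.7 after GSK-LSD1, 1084, 1025 and 1016 after ruxolitinib and 1252, 1247 and 1165 with DMSO. No library of any treatment overlapped those of another, and DMSO was the highest. Its log2 difference from DMSO was -0.69 ± 0.06 (SE, adjusted p = 3.4e-08) after both drugs and -0.54 ± 0.06 (adjusted p = 2.01e-06) after GSK-LSD1, and its mean level fell by 38.1% after both drugs. Ruxolitinib gave -0.23 ± 0.06, which did not pass (adjusted p = 0.0745). Cdt1, which brings the MCM ring to the origin, had 1281, 1333 and 1619 after both drugs, 1497, 1408 and 1403 after GSK-LSD1, 1734, 1827 and 1775 after ruxolitinib and 1701, 1734 and 1706 with DMSO. The libraries with GSK-LSD1, alone or combined, lay below all those without it, and overlapped each other. Cdt1 fell by 0.29 ± 0.07 on the log2 scale after both drugs (adjusted p = 0.0023) and by 0.26 ± 0.07 after GSK-LSD1 (adjusted p = 0.00789). The loader Cdc6 fell by 0.50 and 0.35, and Orc6 by 0.45 and 0.44, after both drugs and after GSK-LSD1 in that order. Orc1, the remaining gene, is taken up with the comparison of the drugs.

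Every helicase gene fell both after the combination and after GSK-LSD1, 12 of 12 in each, with medians of -0.33 and -0.28, and none passed after ruxolitinib, with a median of -0.07. Mcm10, which takes part in activating the loaded helicase, had 909.5, 898.7 and 955.7 normalised read counts after both drugs, 973.1, 942.6 and 971.3 after GSK-LSD1, 1111, 1231 and 1121 after ruxolitinib and 1226, 1251 and 1183 with DMSO. All libraries with GSK-LSD1 lay below all those without it. Its log2 difference from DMSO was -0.41 ± 0.06 (adjusted p = 1.47e-05) after both drugs and -0.34 ± 0.06 (adjusted p = 0.000174) after GSK-LSD1. Mcm3, one of the ring's subunits, had 4414, 4696 and 4954 after both drugs, 5128, 4955 and 4923 after GSK-LSD1, 5337, 5598 and 5574 after ruxolitinib and 6181, 5903 and 6178 with DMSO. The combination overlapped GSK-LSD1, and ruxolitinib lay between them and DMSO with no overlap. Mcm3 fell by 0.38 ± 0.05 after both drugs (adjusted p = 1.17e-05) and by 0.28 ± 0.05 after GSK-LSD1 (adjusted p = 0.000471), and ruxolitinib gave -0.15 ± 0.05 (adjusted p = 0.172). Over the ring subunits Mcm2 to Mcm7 the log2 differences ran from -0.38 for Mcm3 to -0.20 for Mcm7 after both drugs, and Mcm6 fell by 0.35. Gins1, of the GINS complex, had 197.4, 210.1 and 232.7 after both drugs, 222.8, 176.2 and 228.4 after GSK-LSD1, 271.6, 253.8 and 260.9 after ruxolitinib and 244.3, 288.1 and 272.3 with DMSO. Libraries with GSK-LSD1 were again all lower than those without. It fell by 0.33 ± 0.10 after both drugs (adjusted p = 0.0152) and by 0.36 ± 0.10 after GSK-LSD1 (adjusted p = 0.0109). The Gins1 call was lost for both drugs without DMSO replicate 2 or combination replicate 1 (adjusted p of 0.0688 to 0.0765), and for GSK-LSD1 without DMSO replicate 2 or GSK-LSD1 replicate 2 (0.06 to 0.0958). The activating factor Cdc45 fell by 0.26 after both drugs and by 0.23 after GSK-LSD1.

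**Figure D3:**
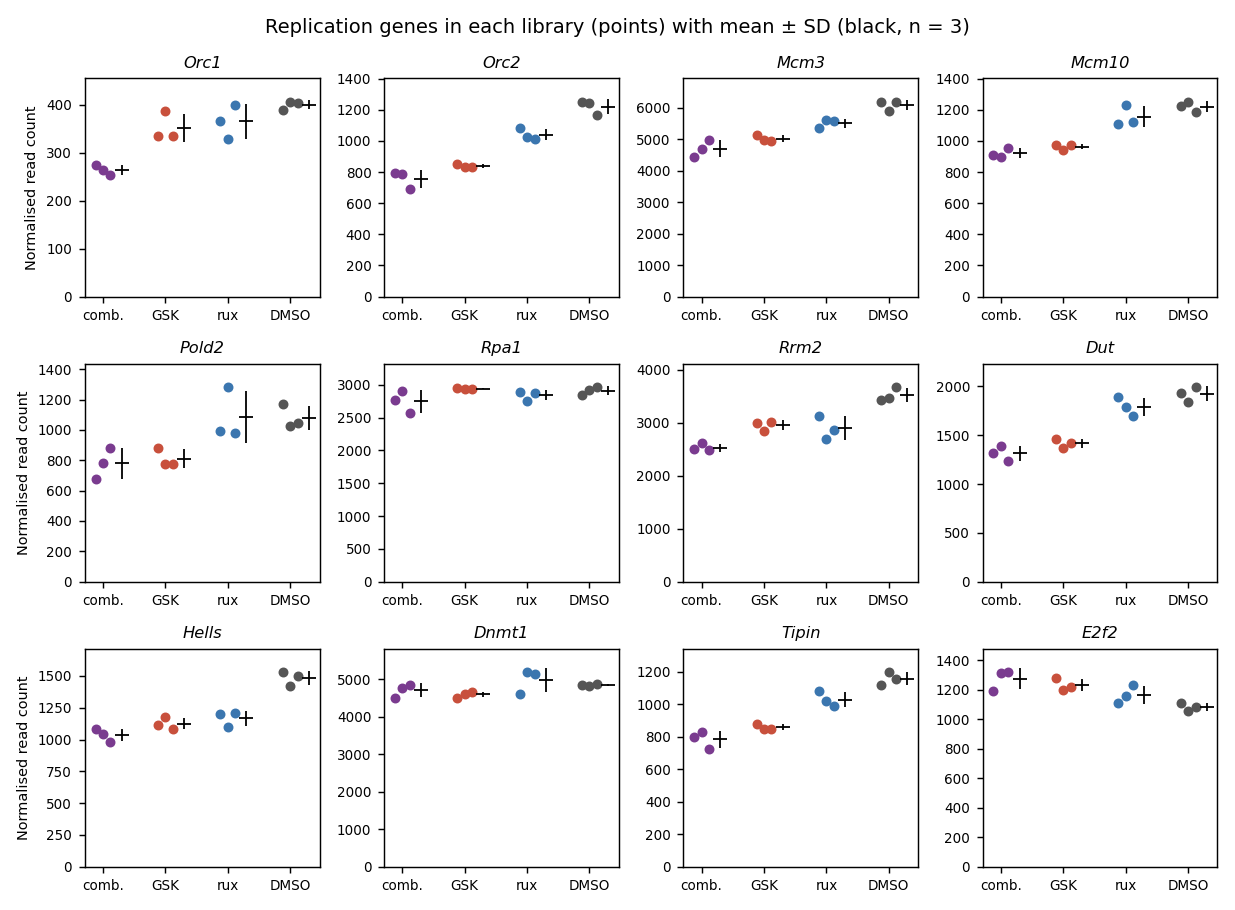
Normalised read counts of 12 members in each library, with the mean ± SD of the 3 libraries of a treatment in black, in the order both drugs (comb.), GSK-LSD1 (GSK), ruxolitinib (rux) and DMSO. Orc2 and Tipin are lowest with both drugs and highest with DMSO without overlap between treatments, Rpa1 and Dnmt1 are nearly level, and E2f2 lies above DMSO in all libraries with GSK-LSD1, alone or combined.

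Among the polymerases 8 of 9 genes fell after both drugs and 5 of 9 after GSK-LSD1, with medians of -0.25 and -0.21. The ruxolitinib median was -0.01. Pold2, an accessory subunit of polymerase delta, had 678.4, 781.3 and 880.1 normalised read counts after both drugs, 880.2, 778.3 and 773.8 after GSK-LSD1, 990.9, 1283 and 976.3 after ruxolitinib and 1169, 1026 and 1043 with DMSO. Every library with GSK-LSD1 was below every library without it, while both drugs and GSK-LSD1 overlapped. Its log2 difference was -0.47 ± 0.10 (adjusted p = 0.000561) after both drugs and -0.41 ± 0.10 (adjusted p = 0.00282) after GSK-LSD1. Pold1, the catalytic subunit of the same enzyme, had 1448, 1484 and 1651 after both drugs, 1640, 1529 and 1530 after GSK-LSD1, 1722, 2021 and 1839 after ruxolitinib and 1850, 1738 and 1857 with DMSO. The same split was seen. Pold1 fell by 0.25 ± 0.07 after both drugs (adjusted p = 0.00456) and by 0.21 ± 0.07 after GSK-LSD1 (adjusted p = 0.0182). The GSK-LSD1 call did not survive leaving out replicate 1 or 3 of DMSO or replicate 2 or 3 of GSK-LSD1 (adjusted p of 0.0688 to 0.0727). Of the primase subunits, Prim1 fell by 0.37 and 0.34 and Prim2 by 0.20 and 0.21 after both drugs and after GSK-LSD1. A trio of subunits passed after both drugs but not after GSK-LSD1. The polymerase alpha catalytic subunit Pola1 was at -0.34 and -0.20 (adjusted p of 0.00247 and 0.0651), its partner Pola2 at -0.23 and -0.16 (0.00794 and 0.0623), and Pole2 of polymerase epsilon at -0.24 and -0.22 (0.0253 and 0.0557). The combination call of Pola2 was lost without combination replicate 1 (adjusted p = 0.0516), and that of Pole2 without any 1 DMSO library or combination replicate 3 (0.0501 to 0.0971). Pold3, another delta subunit, passed in neither, at -0.15 and -0.09 (adjusted p of 0.0634 and 0.317).

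The clamp, its loader and the strand joining proteins were mixed. After both drugs 9 of 11 fell and after GSK-LSD1 7 of 11, with medians of -0.29 and -0.23. The sliding clamp Pcna fell by 0.35 and 0.32, the flap nuclease Fen1 by 0.35 and 0.32, and the ligase Lig1 by 0.25 and 0.24. Rfc4, a clamp loader subunit, had 262.8, 278.2 and 247.6 normalised read counts after both drugs, 324.7, 265.7 and 269.2 after GSK-LSD1, 384, 294.9 and 306.3 after ruxolitinib and 370.4, 343.1 and 332.7 with DMSO. Both drugs and GSK-LSD1 each lay below DMSO, and GSK-LSD1 overlapped ruxolitinib. Rfc4 fell by 0.41 ± 0.10 after both drugs (adjusted p = 0.003) and by 0.29 ± 0.10 after GSK-LSD1 (adjusted p = 0.0358). The GSK-LSD1 call was lost without any 1 DMSO library or without GSK-LSD1 replicate 2 or 3, and with no filter on low genes (adjusted p of 0.0531 to 0.148). Rpa3, the smallest subunit of the single-strand binding protein RPA, had 154.7, 160.8 and 164.1 after both drugs, 183.8, 143.3 and 144.6 after GSK-LSD1, 200, 169.5 and 194.7 after ruxolitinib and 185.7, 208.1 and 202 with DMSO. Its GSK-LSD1 replicate 1 came close to the lowest DMSO library without reaching it. Rpa3 fell by 0.31 ± 0.11 after both drugs (adjusted p = 0.0275) and by 0.34 ± 0.11 after GSK-LSD1 (adjusted p = 0.0206). Both calls were lost without DMSO replicate 2 or 3 or after a correction for GC content, which put the difference after both drugs at -0.18. The combination call was also lost without combination replicate 1 or 2 (adjusted p of 0.0543 to 0.251 over these settings), and the GSK-LSD1 call without GSK-LSD1 replicate 2 or 3 (0.0636 to 0.103). Rpa1, the largest RPA subunit, did not follow. It had 2772, 2907 and 2567 after both drugs, 2952, 2941 and 2934 after GSK-LSD1, 2893, 2750 and 2878 after ruxolitinib and 2840, 2925 and 2967 with DMSO, with all groups overlapping DMSO. Its differences were -0.08 ± 0.06 (adjusted p = 0.231) and 0.02 ± 0.06 (adjusted p = 0.857). The loader subunit Rfc2 also passed in neither, with means of 1262 ± 74.4 after both drugs, 1194 ± 48.6 after GSK-LSD1 and 1262 ± 22.1 with DMSO (SD, n = 3 each). Rfc1 and Rfc3 were at -0.22 and -0.21 after both drugs (adjusted p of 0.0121 and 0.0433) and at -0.14 and -0.17 after GSK-LSD1 (0.117 and 0.109). Leaving out DMSO replicate 3 ended the call of Rfc1 (adjusted p = 0.0594 to 0.0754 there and under quantile normalization), and that of Rfc3 was lost in 13 of 23 alternatives (0.051 to 0.269), with -0.13 after the GC correction.

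Of the nucleotide enzymes 4 of 5 fell after both drugs and 3 of 5 after GSK-LSD1, with medians of -0.33 and -0.20. Dut, which removes dUTP so that uracil stays out of DNA, had 1316, 1393 and 1234 normalised read counts after both drugs, 1458, 1366 and 1424 after GSK-LSD1, 1888, 1786 and 1697 after ruxolitinib and 1933, 1844 and 1995 with DMSO. Libraries with GSK-LSD1 lay below all those without it. Dut fell by 0.55 ± 0.06 after both drugs (adjusted p = 4.23e-07) and by 0.44 ± 0.06 after GSK-LSD1 (adjusted p = 1.3e-05), and its mean level fell by 31.7% after both drugs. Rrm1, the large subunit of ribonucleotide reductase, had 3538, 3555 and 3416 after both drugs, 3602, 3804 and 3698 after GSK-LSD1, 3939, 3631 and 4115 after ruxolitinib and 4228, 4276 and 4274 with DMSO. All treated libraries were below DMSO, and those with both drugs were the lowest. Rrm1 fell by 0.28 ± 0.06 after both drugs (adjusted p = 0.000307) and by 0.20 ± 0.06 after GSK-LSD1 (adjusted p = 0.00734), with -0.13 ± 0.06 after ruxolitinib (adjusted p = 0.22). Tk1, the salvage thymidine kinase, fell by 0.33 after both drugs (adjusted p = 0.00255) and was at -0.19 after GSK-LSD1 (adjusted p = 0.0812). Tyms, which makes thymidylate anew, stayed near its DMSO level, with means of 789 ± 31.6 after both drugs, 840.7 ± 34.4 after GSK-LSD1, 829.1 ± 23.7 after ruxolitinib and 838.1 ± 23.3 with DMSO. None of its differences passed (adjusted p of 0.266, 0.969 and 0.924).

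Chromatin assembly and methylation genes were also divided. After both drugs 6 of 9 fell and after GSK-LSD1 5 of 9, with medians of -0.26 and -0.19. Hells, a chromatin remodeller needed for DNA methylation (chr19:38930915-38971051, plus strand), had 1080, 1040 and 982.6 normalised read counts after both drugs, 1116, 1175 and 1085 after GSK-LSD1, 1197, 1097 and 1207 after ruxolitinib and 1530, 1423 and 1498 with DMSO. Every treated library was below every DMSO library, and both drugs did not overlap GSK-LSD1. Hells fell by 0.52 ± 0.06 after both drugs (adjusted p = 9.33e-07) and by 0.40 ± 0.06 after GSK-LSD1 (adjusted p = 4.72e-05). Its partner Cdca7 fell by 0.42 and 0.32, and Uhrf1, which brings Dnmt1 to newly copied DNA, by 0.26 and 0.16. Dnmt1 itself, the maintenance methyltransferase, had 4493, 4767 and 4860 after both drugs, 4511, 4613 and 4659 after GSK-LSD1, 4600, 5192 and 5135 after ruxolitinib and 4857, 4814 and 4880 with DMSO. GSK-LSD1 lay just below DMSO, and both drugs overlapped it. Neither difference passed, at -0.04 ± 0.06 (adjusted p = 0.557) and -0.08 ± 0.06 (adjusted p = 0.306). The subunits of the histone chaperone CAF-1 parted in the test, Chaf1a falling by 0.31 and 0.28 while Chaf1b was at -0.18 and -0.19 (adjusted p of 0.0762 and 0.0826). The difference between the pair was not tested. Asf1b, another histone chaperone, had means of 1077 ± 22.9 after both drugs, 1095 ± 57.8 after GSK-LSD1 and 1090 ± 15.9 with DMSO and passed in neither. The histone mRNA binding protein Slbp fell by 0.20 and 0.24. Atad2, an ATPase with a bromodomain, fell by 0.34 after both drugs (adjusted p = 0.00138) and was at -0.14 after GSK-LSD1 (adjusted p = 0.174).

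In S phase entry and fork protection 6 of 7 genes fell and 1 rose, both after the combination and after GSK-LSD1. Tipin, which with Timeless steadies the stalled fork, had 796.4, 825.7 and 726 normalised read counts after both drugs, 879.2, 847 and 849.6 after GSK-LSD1, 1078, 1017 and 989.2 after ruxolitinib and 1118, 1197 and 1156 with DMSO. As for Orc2, no treatment overlapped another. Tipin fell by 0.56 ± 0.06 after both drugs (adjusted p = 4.51e-07) and by 0.43 ± 0.06 after GSK-LSD1 (adjusted p = 2.67e-05), and was at -0.17 ± 0.06 after ruxolitinib (adjusted p = 0.167). Timeless fell by 0.19 and 0.18 and the checkpoint adaptor Clspn by 0.33 and 0.18. The E cyclins, which drive entry into S phase with Cdk2, both fell, Ccne1 by 0.44 and 0.30 and Ccne2 by 0.55 and 0.41. The 2 E2F genes of the list moved in opposite directions. E2f1 fell by 0.34 ± 0.07 after both drugs (adjusted p = 0.000666) and by 0.23 ± 0.07 after GSK-LSD1 (adjusted p = 0.0184). E2f2 (chr4:136172394-136196057, plus strand) had 1193, 1312 and 1321 after both drugs, 1278, 1201 and 1222 after GSK-LSD1, 1109, 1158 and 1231 after ruxolitinib and 1112, 1057 and 1083 with DMSO. Libraries with GSK-LSD1 lay above all DMSO libraries. E2f2 rose by 0.23 ± 0.06 after both drugs (adjusted p = 0.00438), a level 17.5% higher, and by 0.19 ± 0.06 after GSK-LSD1 (adjusted p = 0.0249). With a correction for GC content the rise after both drugs was 0.15 (adjusted p = 0.0346, and 0.048 with a replicate block as well). The GSK-LSD1 call was lost without DMSO replicate 2 or 3, without GSK-LSD1 replicate 1 or 3, and under a replicate block with a GC correction (adjusted p of 0.0583 to 0.096).

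Ruxolitinib alone moved few replication genes past the test. The members that fell, Hells and Rrm2, were 2 of 58 (3.45%), where 0.627% of all tested genes fell. Rrm2, the small subunit of ribonucleotide reductase, had 2493, 2614 and 2476 normalised read counts after both drugs, 2987, 2850 and 3016 after GSK-LSD1, 3128, 2682 and 2867 after ruxolitinib and 3424, 3458 and 3672 with DMSO. Both single drugs lay below DMSO and overlapped each other, and both drugs together lay below either. Rrm2 fell by 0.28 ± 0.06 after ruxolitinib (adjusted p = 0.0169), by 0.25 ± 0.06 after GSK-LSD1 (adjusted p = 0.00259) and by 0.48 ± 0.06 after both (adjusted p = 1.89e-06). Hells, whose values stand with the chromatin genes, fell by 0.35 ± 0.06 after ruxolitinib (adjusted p = 0.00722), and its mean level dropped by 21.4%. Without DMSO replicate 3 neither passed, and without DMSO replicate 1, DMSO replicate 2 or ruxolitinib replicate 2 only Hells did. The adjusted p of Rrm2 over those 4 settings was 0.0542 to 0.131. With the GC correction the difference of Hells was -0.24 (adjusted p = 0.0314), and its call was lost when a replicate block was added (adjusted p = 0.0525). Most members had small negative differences: 47 of 58, these 2 included, were below 0. The median over all tested genes was -0.001, and their share below 0 is not given here. By limma 14 members had an unadjusted p under 0.05, all lower (24.1%, against 17.5% of all tested genes in either direction). Over 11053 genes the ruxolitinib difference rose with GC content (Spearman rho 0.415). The rho was 0.11 for GSK-LSD1, 0.205 for both drugs and 0.26 for both drugs against GSK-LSD1. The median GC content was 49.1% for members and 49.7% for all these genes. By step, ruxolitinib left the summed level at 89.7% of DMSO for the nucleotide enzymes and at 98.2% for the polymerases.

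Adding GSK-LSD1 to ruxolitinib lowered 44 members and raised none, where 31.6% of all tested genes changed, 15.6% lower and 16% higher. The median log2 difference was -0.24, and -0.017 over all tested genes. All 12 helicase genes and all 5 licensing genes were among those that fell, with 6 of 9 polymerase, 7 of 11 clamp, 4 of 5 nucleotide, 4 of 9 chromatin and 6 of 7 entry genes. In 43 members all 3 libraries with both drugs lay below all 3 with ruxolitinib, against 19.1% of all tested genes. The count of members that fell was 28 without combination replicate 1. Pold2 and Orc2, whose library values are given above, had -0.47 ± 0.10 (adjusted p = 0.000906) and -0.46 ± 0.06 (adjusted p = 1.3e-05). Set directly against ruxolitinib, GSK-LSD1 alone lowered 24 members and raised none, where 25.4% of all genes changed, 11.8% lower and 13.6% higher. Its libraries lay below those of ruxolitinib without overlap in 33 members, against 19.8% of all tested genes. Without GSK-LSD1 replicate 2 or without replicate 3 the 24 were 14. For the counts with a library left out, the shares of all tested genes are not given here.

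Adding ruxolitinib to GSK-LSD1 lowered 1 member, Orc1, where 1.4% of all tested genes changed, 0.348% lower and 1.05% higher. Orc1, the largest subunit of the origin recognition complex (chr4:108579423-108614833, plus strand), had 273.7, 263.4 and 253.6 normalised read counts after both drugs, 334.7, 386.2 and 334.1 after GSK-LSD1, 366.1, 328.8 and 400.2 after ruxolitinib and 389.3, 406.1 and 404 with DMSO. The libraries with both drugs were below all others, those with GSK-LSD1 were below DMSO, and those with ruxolitinib overlapped GSK-LSD1 and DMSO. Orc1 was lower with both drugs than with GSK-LSD1 by a log2 difference of -0.41 ± 0.09 (adjusted p = 0.0118), and fell by 0.60 ± 0.09 against DMSO (adjusted p = 1.01e-05). Neither single drug changed it past the test, at -0.19 ± 0.09 for GSK-LSD1 (adjusted p = 0.101) and -0.14 ± 0.09 for ruxolitinib (adjusted p = 0.43). Without GSK-LSD1 replicate 2, its highest library in that group, the Orc1 call against GSK-LSD1 was lost (adjusted p = 0.131) and the count was 0. Without ruxolitinib replicate 1 or 2 the count was 2. The shares of all tested genes with these libraries left out are not given here. Over all members 49 of 58 were lower with both drugs than with GSK-LSD1, with a median of -0.06. The median over all tested genes was -0.011, and their share below 0 is not given here. By limma 10 members had an unadjusted p under 0.05, all lower (17.2%, against 12.3% of all tested genes in either direction). In 13 members the libraries with both drugs lay below those with GSK-LSD1 without overlap, against 9.33% of all tested genes.

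The interaction, the difference of both drugs from ruxolitinib minus that of GSK-LSD1 from DMSO, asks whether the combined effect departs from the sum of the single effects on the log2 scale. It passed for none of the 58 members, and for 1 of all 11484 genes (0.00871%), by limma. At an unadjusted p under 0.05 there were 2 members, against 534 of all genes (4.65%), and no other tool was run. Hells was at 0.22 ± 0.09 (unadjusted p = 0.0179), a smaller fall than the sum, and Orc1 at -0.28 ± 0.12 (unadjusted p = 0.0332), a larger fall than the sum. Members ran between these values with standard errors of 0.07 to 0.18, so departures of this size could not be told from the spread of 3 libraries a group.

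**Figure D4:**
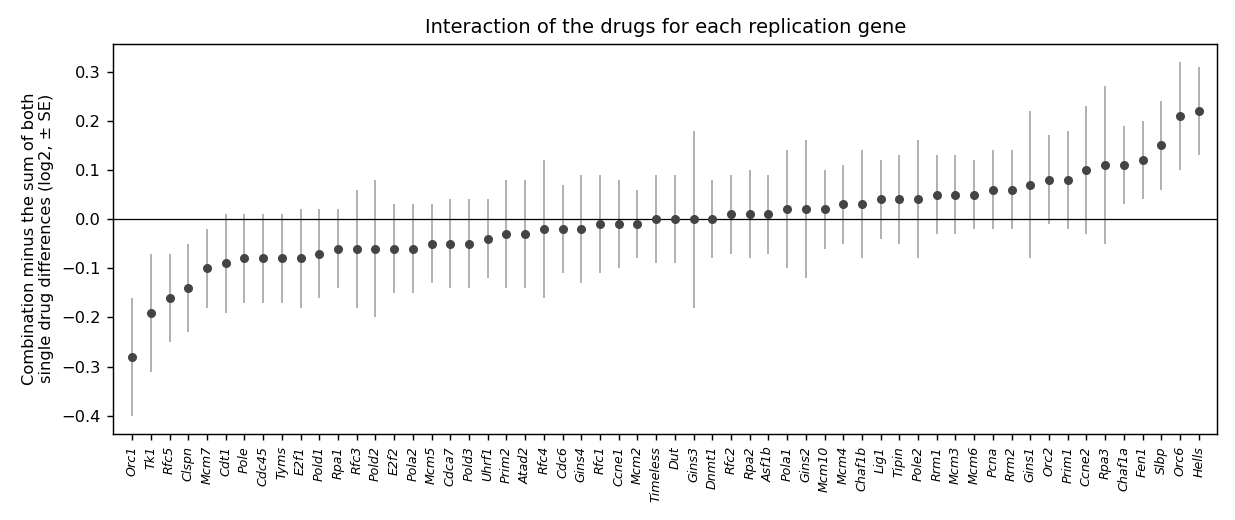
Interaction of the drugs for each of the 58 members, in order of size, as a point with its standard error on the log2 scale; 0 means that both drugs together differ from DMSO by the sum of the single differences. The members run from -0.28 (Orc1) to 0.22 (Hells), with 30 below 0 and 28 above, and none passed the test.

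A list of 60 further replication genes, of licensing and firing, the fork, nucleotides, chromatin and E2F control, mostly moved in the same direction. Like the members, this list was chosen with earlier results of these data known, so it is not independent of them. After both drugs 42 of 60 fell and 3 rose, after GSK-LSD1 27 fell and 2 rose, and after ruxolitinib none passed, with 16 at an unadjusted p under 0.05. Of all tested genes 21.8% fell and 20.5% rose after both drugs, 15.5% fell and 17% rose after GSK-LSD1, and 17.5% had an unadjusted p under 0.05 after ruxolitinib. The medians of the 60 genes were -0.27, -0.19 and -0.10 in that order. The largest falls after both drugs were those of Shmt1, an enzyme of one-carbon supply for thymidylate, and Dctpp1, which breaks down surplus dCTP. Shmt1 had 724, 754.7 and 757.8 normalised read counts after both drugs, 869.2, 879.8 and 865.6 after GSK-LSD1, 1023, 979.2 and 1023 after ruxolitinib and 1177, 1140 and 1182 with DMSO, with no overlap between treatments. It fell by 0.65 ± 0.06 after both drugs (adjusted p = 1.39e-08), and was lower with both than with GSK-LSD1 by -0.23 ± 0.06 (adjusted p = 0.0499), a call lost in 14 of 23 alternatives, among them leaving out any 1 DMSO, GSK-LSD1 or combination library or ruxolitinib replicate 1 (up to 0.213). Dctpp1 fell by 0.54 ± 0.09 (adjusted p = 4.7e-05). Samhd1, which degrades the nucleotides that replication uses, rose by 0.55 ± 0.07 after both drugs (adjusted p = 2.52e-06) and by 0.34 ± 0.07 after GSK-LSD1 (adjusted p = 0.000782). Its libraries held 888.7, 846.4 and 949.7 after both drugs, 785.3, 712.6 and 834.7 after GSK-LSD1, 578, 631.9 and 620.6 after ruxolitinib and 617.7, 602.2 and 614.9 with DMSO. The pocket protein Rbl2, a repressor of E2F targets in resting cells, rose by 0.30 ± 0.08 and 0.31 ± 0.08. Tfdp2, a partner of E2F factors, rose by 0.23 ± 0.08 after both drugs (adjusted p = 0.0284), a call lost without any 1 DMSO library or without combination replicate 1 or 2 (0.0596 to 0.113).

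Exons of 18 of the 58 members overlap another annotated gene, mostly on the other strand. The labels do not say whether counting used the strand. Whether reads from the shared bases were assigned to the right gene of a pair is therefore not known. The overlap is 1150 bases of Orc2 with Nif3l1, 4648 of Chaf1a with Ubxn6, 2758 of Gins2 with Gse1, 1909 of Fen1 with Gm10143, 952 of Rfc2 with Lat2 and 609 of Ccne2 with Ints8. The 40 members without an overlap include Mcm2 to Mcm6, Mcm10, Cdc6, Cdt1, Dut, Rrm1, Rrm2, Hells, Dnmt1, Tipin and E2f2.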

How the data were processed

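Gene values were deposited as 1 table of normalised read counts, treated here as signal. Their spacing, given below, is what counts divided by 1 factor per library would show. STAR, DESeq2 and the builds mm10 and GRCm38 are named in the submitters' processing notes. The counter and strand setting are not given in the sources used here. A constant of 1e-05 was taken off every value; the remaining values were whole multiples (tolerance 0.01) of a step of 0.9865 to 1.027 per library. Values were tested as log2(value + 1) with limma 3.58.1 in R 4.3.3 (variance trend, all 12 libraries, 8 residual degrees of freedom), over the 11484 genes with a mean of at least 10, with Benjamini-Hochberg adjustment over all of them and calls at an adjusted p under 0.05. Fold changes on this scale understate those of low genes. The fit was tested on simulated data. Per step, the text gives every library for the called member with the largest fall and rise after GSK-LSD1, the largest difference after both drugs, the highest mean, and every member called after ruxolitinib, against GSK-LSD1 or in the interaction, and names members not called after GSK-LSD1 or both drugs; the rest are examples of their step. The members and lists were chosen with earlier results of these data known. Replicate numbers did not pair libraries (see the closing part). Alternatives were the pseudocount, filter, scaling, library weights, GC correction, replicate block and leaving out libraries.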

Additional observations from a re-analysis of the deposited data

How the results depend on the processing

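Of 72 results on named genes 23 lost their call under at least 1 of 23 alternatives, all 23 of them when 1 library was left out, and none changed sign. Lower in all 23 alternatives were 40 members after both drugs, 26 after GSK-LSD1, 25 for both drugs against ruxolitinib, 10 for GSK-LSD1 against ruxolitinib and none after ruxolitinib or for both drugs against GSK-LSD1. The share of all tested genes lower in all 23 was not computed, so these counts do not speak of the members in particular. In the main fit alone 21.8%, 15.5%, 15.6% and 11.8% of all tested genes were lower in the first 4 of these comparisons. After ruxolitinib the members called numbered 4 with the GC correction (Mcm3, Fen1, Rrm2 and Hells) and 0 to 3 with 1 library left out. For both drugs against GSK-LSD1 they numbered 2 with weights per library, with the GC correction, with the replicate block and GC correction together, and without both ruxolitinib replicate 2 and combination replicate 3, and 0 to 2 with 1 library left out. Leaving out 1 library gave 28 to 47 members after GSK-LSD1, 28 to 43 for both drugs against ruxolitinib and 14 to 32 for GSK-LSD1 against ruxolitinib. Shares of all tested genes under these settings are not given, so a shift in such counts may not be particular to the members. With quantile normalization the median difference of members was -0.21 after GSK-LSD1 and -0.29 after both drugs. With 1 library left out the medians were -0.26 to -0.23 after GSK-LSD1, -0.33 to -0.30 after both drugs, -0.26 to -0.23 for both against ruxolitinib, -0.08 to -0.05 for both against GSK-LSD1 and -0.01 to 0.02 for the interaction. The cause of these shifts was not tested. Replicate numbers did not pair the libraries: over 18 same-numbered pairs the correlation of deviations was -0.148 to 0.15, and 3 of 12 libraries were closest to their own number. With the replicate block the members called numbered 49 after both drugs, 40 after GSK-LSD1, 2 after ruxolitinib, 41 for both drugs against ruxolitinib, 1 for both against GSK-LSD1, 20 for GSK-LSD1 against ruxolitinib and 0 for the interaction. The shares of all tested genes with this block are not given here either, so these counts do not speak of the members in particular. Count models (edgeR and DESeq2) were planned only for recovered whole reads and were not run.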
